A study of Mus musculus with 2 samples.

Results

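B cells were found among colon cells that, by the study's methods, had been sorted for macrophage surface proteins. They are described here in 2 single-cell RNA-seq libraries. A barcode counted as a B cell where it had at least 3 unique molecular identifiers (UMIs, tags that count each captured transcript once) over Cd79a, Cd79b and Ms4a1, no Csf1r, fewer than 20 UMIs over S100a8 and S100a9, and fewer than 2 over Cd3d, Cd3e and Cd3g. This rule took 325 of the 3173 barcodes that passed the filter on cells. They were 180 of 2443 in the IL-10R KO library, or 7.37% (6.36 to 8.48), and 145 of 730 in the IL-10R/CerS2 DKO library, or 19.9% (17.0 to 22.9). Each gene used by the rule is high or absent by choice, so its level describes the members and is not a finding.

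The KO mice were CD45.1 recipients engrafted with CD45.2 bone marrow of donors that lacked the IL-10 receptor, and the DKO mice had received marrow that lacked both this receptor and CerS2, the ceramide synthase that makes very long chain ceramides. The study's text names the deleted receptor gene as Il10rb. Loss of the receptor was shared by both libraries, no library of intact donors was analysed here, and the donor deletions were not limited to B cells. The labels give neither the age of the mice nor how many were pooled per library. By the study's methods, colon cells were sorted for CD45, CD11b, CD11c and CD64, which was meant to remove B cells along with T cells and neutrophils. Its results section describes only a sort of CD45+ immune cells. The labels call the cells colon macrophages, and which sort the libraries had was not tested. Members that came from the CD45.1 host cannot be told apart from donor cells here. With 1 library per genotype, genotype cannot be told apart from mouse, sort or library, no test between genotypes was possible, and intervals are at 95% and cover counting error only.

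B cells carry an antigen receptor made of an immunoglobulin on the cell surface and the signalling pair CD79A and CD79B. Naive B cells display IgM and IgD and recirculate through follicles of lymphoid tissue, in the colon also in isolated lymphoid follicles. When activated they show the costimulatory proteins CD80 and CD86, and some become plasma cells, which in the gut mostly secrete dimeric IgA joined by the J chain.

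EBF1 and the octamer-binding proteins OCT2 (Pou2f2) with their cofactor OBF1 (Pou2af1) are transcription factors of the B lineage, and transcripts of all 3 were present in the members. To show what their known recognition sequences look like upstream of genes that these cells express, 250 bases before the start site were searched on both strands for the octamer ATGCAAAT and the EBF1 palindrome (TCCC, any 2 bases, GGGA), and no promoter printed holds both. The octamer lay upstream of 3 of the 32 B lineage and receptor signalling genes with a promoter entry and of 1.60% of all 32851 promoters. The palindrome lay upstream of 1 of the 32 genes, Cd22, and of 0.779% of all promoters. The sequences are from RefSeq on GRCm38.p6, written along the gene's strand, with the match in capitals, and a match is not evidence of binding. Vpreb3 (chr10:75948050-75948299, plus strand), Blnk (chr19:40994222-40994471, minus strand) and Prkcb (chr7:122288875-122289124, plus strand) hold the octamer, and Cd22 (chr7:30879029-30879278, minus strand) holds the palindrome.
Vpreb3: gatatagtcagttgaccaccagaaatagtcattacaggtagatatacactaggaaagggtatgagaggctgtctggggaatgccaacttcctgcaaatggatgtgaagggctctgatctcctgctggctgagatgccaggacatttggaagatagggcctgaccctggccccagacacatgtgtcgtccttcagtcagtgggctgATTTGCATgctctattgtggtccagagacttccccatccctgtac
Blnk: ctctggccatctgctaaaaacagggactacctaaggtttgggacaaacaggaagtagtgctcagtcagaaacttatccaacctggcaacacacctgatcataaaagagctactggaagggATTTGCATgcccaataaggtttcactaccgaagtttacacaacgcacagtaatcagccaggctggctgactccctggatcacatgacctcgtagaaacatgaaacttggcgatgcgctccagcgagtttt
Prkcb: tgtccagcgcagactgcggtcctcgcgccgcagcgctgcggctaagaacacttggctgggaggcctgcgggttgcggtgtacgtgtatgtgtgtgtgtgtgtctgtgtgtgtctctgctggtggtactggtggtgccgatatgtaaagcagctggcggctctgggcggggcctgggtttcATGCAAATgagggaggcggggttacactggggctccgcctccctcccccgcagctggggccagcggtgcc
Cd22: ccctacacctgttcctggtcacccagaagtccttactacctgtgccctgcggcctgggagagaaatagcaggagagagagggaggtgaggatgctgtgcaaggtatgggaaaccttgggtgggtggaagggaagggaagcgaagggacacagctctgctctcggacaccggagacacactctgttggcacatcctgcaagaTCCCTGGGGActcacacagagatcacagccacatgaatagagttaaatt

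The KO members held 614068 UMIs, which was 4.95% of the UMIs of the kept cells of their library, and the DKO members held 438089, or 12.9%. The median member of KO had 2502 UMIs over 998 genes and that of DKO 2596 over 1024, less than the median T cell (4008 and 3813 UMIs) or Csf1r+ cell (6049.5 and 6227.5 UMIs). Mitochondrial UMIs took 1.99% (KO) and 1.93% (DKO) of the median member. The libraries shared 1 barcode, and it was not a member.

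Of the kept barcodes, 185 in KO and 146 in DKO reached 3 UMIs over the 3 marker genes. Csf1r then removed 4 and 1 of them, and the CD3 genes removed 2 and 0, with 1 KO barcode removed by both. The median marker sum was 6 (KO) and 7 UMIs (DKO), and the highest were 42 and 23. Just inside the threshold, at 3 UMIs, were 26 KO and 9 DKO members, of which 26 and 8 held Ebf1. Just outside, at 2 UMIs, were 27 KO and 17 DKO barcodes that met the rest of the rule, and 26 and 17 of these held Ebf1, so the threshold left out barcodes with the same lineage gene.

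The label was checked on genes that the rule did not use. Ebf1, a transcription factor that commits cells to the B lineage, had 1062 UMIs in 172 of 180 KO members and 980 UMIs in 141 of 145 DKO members. Its level was 1729 (KO) and 2237 (DKO) counts per 1000000 UMIs (CPM), with 0 UMIs in T cells of either library. Pax5, which keeps B cells in their lineage, was at 60.3 (KO) and 77.6 CPM (DKO), and Fcmr, the receptor for IgM, at 193.8 and 237.4 CPM. All 18 genes of the B lineage list were detected in both libraries. The barcodes thus carried the transcripts of B cells.

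**Figure D1:**
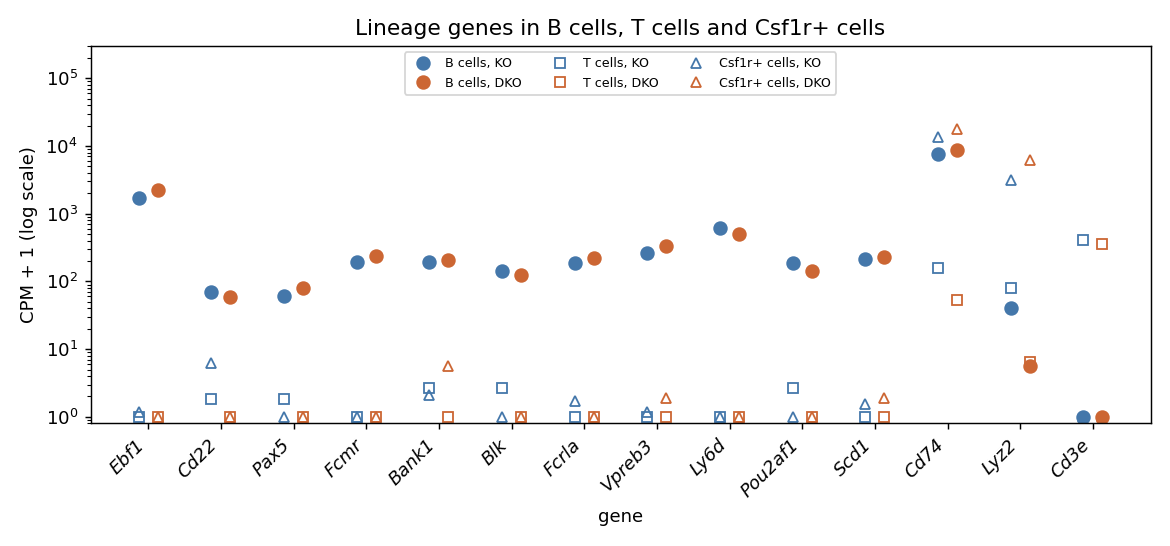
CPM + 1 on a log axis for lineage genes in B cells (filled circles), T cells (open squares) and Csf1r+ cells (open triangles) of the KO (blue) and DKO (orange) libraries, 1 point per class and library, without error bars. The 10 B lineage genes from Ebf1 to Pou2af1, and Scd1, sit between 57.1 (Cd22 in DKO) and 2237 CPM (Ebf1 in DKO) in B cells and near the bottom in the other classes, where Cd22 reaches 5.18 CPM in KO Csf1r+ cells, and Cd74 is high in B cells and Csf1r+ cells.

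Genes that set members apart from other kept cells included Jchain, Igha and Igkc, Cd79a (190.4 times the CPM of other kept cells over both libraries), Vpreb3 (146.2 times), Fcmr (90.9 times) and Pou2af1 (87.4 times). Since the members were chosen by values, these ratios describe the choice. Jchain was seen in only 10 of 180 KO and 2 of 145 DKO members, and Igha in 12 and 6. Most UMIs of both genes lay in a few cells that are described below. Scd1, which encodes the stearoyl-CoA desaturase that makes oleic acid and was named after its values were seen, was seen in 83 KO members (210.1 CPM) and 58 DKO members (230.5 CPM). It had 0 UMIs in T cells of either library and 0.556 and 0.922 CPM in Csf1r+ cells.

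Transcripts of CD11b, CD11c and CD64, the proteins that the study's methods name for the sort beside CD45, were near 0 in the members. Itgam (CD11b) had 1 UMI in KO and 2 in DKO, Itgax (CD11c) had 0 and 3, and Fcgr1 (CD64) had 1 and 0. Any of the 3 was seen in 2 of 180 KO members and 3 of 145 DKO members. In Csf1r+ cells of KO, Itgam stood at 134.1 CPM, Itgax at 137.4 CPM and Fcgr1 at 72.2 CPM. Ptprc (CD45) was at 270.3 (KO) and 251.1 CPM (DKO).

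Markers of other cells were counted in the same members. Of the 12 T cell markers, which include the CD3 genes limited by the rule, 6 in KO and 10 in DKO were at 0, among them Cd4, Cd8a, Trbc1 and Trbc2. A UMI of the 9 that the rule did not use was seen in 11 KO and 3 DKO members, at most 1 each. Of the 8 neutrophil markers, which include S100a8 and S100a9 limited by the rule, 6 and 5 were at 0, and all 6 mast cell and basophil markers were at 0. Siglech, the surface marker of plasmacytoid dendritic cells, and Clec9a and Xcr1, markers of conventional dendritic cells, were at 0 in both libraries. The plasmacytoid list holds Tcf4, Irf8 and Bst2, and the dendritic list Ccr7, which B cells express too. Epcam had 11 UMIs in KO and 6 in DKO with the other 6 epithelial markers at 0. Of 12 monocyte and macrophage markers, 2 were at 0 in KO and 8 in DKO. Among these, Csf1r was at 0 in both by the rule, and Adgre1 was at 0 in both. The summed UMIs of the 11 markers the rule did not use had a median of 1 per member in both libraries and reached 95 in KO and 63 in DKO, against medians of 61 and 81 per Csf1r+ cell. Apoe alone held 466 of the 726 UMIs of this list in KO members and 306 of 443 in DKO members. It reached 53 (KO) and 62 UMIs (DKO) in a single member, so high sums can rest on 1 gene. Lyz2, C1qa, C1qb or C1qc was seen in 15 of 180 KO members (8.33%) and in 2 of 145 DKO members (1.38%), and the part this has in the comparison of the genotypes was not tested.

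The deleted gene was looked at before the comparison. Cers2 (ENSMUSG00000015714, GRCm38 chromosome 3, 95314791 to 95323599, plus strand) had 18 UMIs in 14 KO members, or 29.3 CPM, and 0 UMIs in DKO members. Its KO level was 4.28 times the DKO floor of 3 UMIs, 6.85 CPM, a value that leaves out the counting error of the KO UMIs. By the same floor of 3 counts, the 0 of 145 DKO members allow a share with a Cers2 UMI of up to 2.07% (2.51% by the exact binomial limit). Il10rb (ENSMUSG00000022969), deleted in both, had 1 UMI in KO and 0 in DKO, which is too few to check the labels.

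Most members had a transcript of an unswitched heavy chain, which naive B cells share with other B cell types. Ighm or Ighd, the constant regions of IgM and IgD, was seen in 144 KO members, or 80.0% (73.4 to 85.6), and in 118 DKO members, or 81.4% (74.1 to 87.4). Both genes were seen in 71 KO and 44 DKO members, Ighm alone in 53 and 58, and Ighd alone in 20 and 16. IgA or IgG constant genes without Ighm and Ighd were seen in 13 KO members (7.22%, 3.90 to 12.03) and 7 DKO members (4.83%, 1.96 to 9.69). No heavy chain constant gene was captured in 23 and 20 members.

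The 12 genes of the naive follicular list were all detected and none was past 2-fold between the libraries, with a median log2 ratio of DKO over KO of 0.14 against 0.16 for all genes. Fcer2a (CD23), the low-affinity IgE receptor of follicular B cells, was at 172.6 (KO) and 166.6 CPM (DKO), with no UMI in T cells and 22 of its 73 DKO UMIs in a single member. Ccr7, which guides lymphocytes toward T cell zones, was at 444.6 and 541 CPM. Cxcr5, which guides them into follicles, was at 40.7 and 57.1 CPM, and Cr2, the complement receptor CD21, at 35.8 and 43.4 CPM. After each cell was thinned to 1000 UMIs by 1 random draw, Ighd was seen in 31.3% of KO members (24.6 to 38.6) and 23.4% of DKO members (16.8 to 31.2), and in 0 and 1.18% of T cells, whose median depths are given above. At 1500 UMIs the shares of members were 33.5% and 32.1%, and unthinned they were 50.6% and 41.4%. Fcer2a was seen in 19.6% of KO members (14.0 to 26.1) and 11.7% of DKO members (6.98 to 18.1) at 1000 UMIs. Unthinned, its shares were 35% and 25.5%. Thinning left out 1 KO member and 1 KO T cell for lack of depth.

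Some markers of other B cell states were at 0 or seen in few members, while other genes of their lists were detected. Cd5, a B-1 cell marker, and Tbx21, a factor of age-associated B cells, had 0 UMIs in both libraries, which allows up to 4.89 CPM in KO and 6.85 CPM in DKO. Over both libraries 10 of 11 genes of the B-1 list, 5 of 6 age-associated and 7 of 7 marginal zone genes were detected. How common these states were was not tested. Rgs13, a germinal centre gene, had 15 UMIs in 2 KO members and 0 in DKO. These 2 members held 5 and 10 Rgs13 UMIs, 5 and 19 Ighg1 UMIs and no Ighm or Ighd. The cytokine genes Il10 and Il6 had 0 UMIs in both libraries. Ltb, lymphotoxin beta, which B cells use to organise lymphoid tissue, was at 319.2 and 317.3 CPM. Tlr7 had 4 UMIs in each library and Tlr9 had 0 and 1.

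The kappa light chain constant gene Igkc was seen in 163 KO and 136 DKO members, with a median of 8 UMIs per member in both libraries. UMIs of Iglc1, Iglc2 or Iglc3 were seen in 144 and 114 members, and both kinds in 132 and 107, while the lambda genes outnumbered Igkc in 31 and 19 members. The 3 lambda genes are near-identical copies, so their separate counts are uncertain. T cells had Igkc in 6.48% of KO cells and 3.53% of DKO cells. Iglc2 was at 828.9 (KO) and 778.4 CPM (DKO), and its log2 ratio of DKO over KO was -0.09 (-0.29 to 0.11).

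A few members held most of the immunoglobulin RNA. At 20 or more Jchain UMIs, a cut chosen after the values were seen, there were 5 members in KO (2.78%, 0.908 to 6.36) and 1 in DKO (0.690%, 0.0175 to 3.78). The 5 KO members held 1548, 836, 629, 583 and 128 Jchain UMIs, and 15415, 7255, 6096, 4165 and 1497 Igkc UMIs in the same order. Their Igha UMIs, the constant region of IgA, were 1362, 1252, 1422, 961 and 204. The DKO member held 74 Jchain, 1797 Igkc and 259 Igha UMIs. None of the 6 had an Ighm or Ighd UMI, 1 had a Ms4a1 UMI, and 3 KO members and the DKO member also held 31 to 70 UMIs of Ighg2b. The 6 cells held 17817 to 25879 UMIs each. Antibody-secreting cells with too few marker UMIs for the rule would not be in these counts and shares. The plot of Igkc against Jchain shows these 6 cells apart from the rest.

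**Figure D2:**
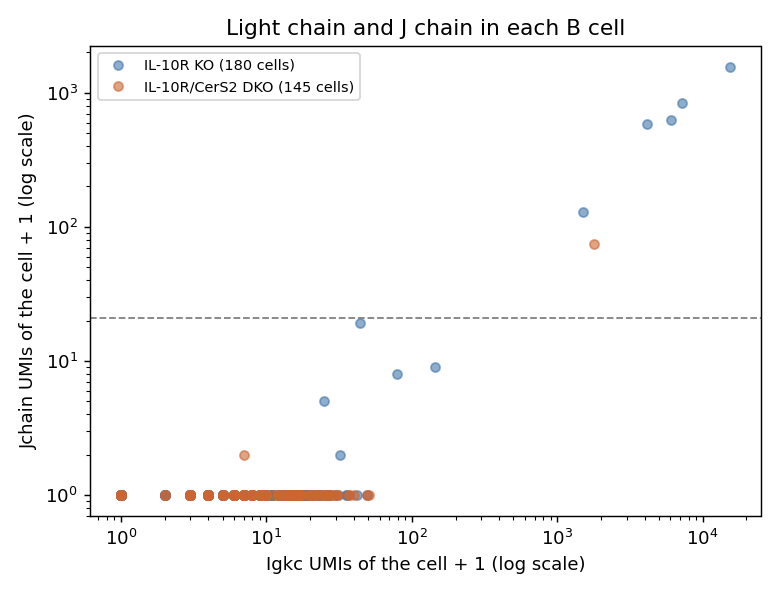
UMIs of Igkc (horizontal) and Jchain (vertical) in each B cell, with 1 added on log axes, for 180 KO (blue) and 145 DKO (orange) members. The dashed line marks 20 Jchain UMIs, above which 5 KO cells and 1 DKO cell lie, and most other cells have no Jchain.

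These cells held the machinery of antibody secretion. The KO cells had 43 to 158 UMIs of Mzb1, a chaperone of immunoglobulin assembly, and 4 to 47 UMIs of Xbp1, the factor that expands the secretory pathway. All 5 held Ccr10, the receptor that guides IgA plasma cells to the gut lining, with 2 to 10 UMIs, and no other member of either library held one. The DKO cell had 57 Mzb1 UMIs, 9 Xbp1 UMIs and none of Ccr10. Immunoglobulin genes took 72.2% of the UMIs of the cell with the most and 8.96% of that with the fewest among the KO cells, and 12.98% of the DKO cell. The variable gene with the most UMIs differed between the 5 KO cells. The leading genes were Igkv12-89 with 154 UMIs, Iglv1 with 232, Igkv6-32 with 181, Igkv4-57 with 165 and Igkv1-135 with 14. The DKO cell was led by Igkv10-96 with 13. Iglv1 was not limited to a single cell, with 446 UMIs in 8 KO members.

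These cells weighed on the KO sums. They held 99.0% of the KO members' Jchain UMIs, 99.3% of Igha, 94.7% of Igkc, 70.5% of Mzb1 and 18.2% of all UMIs, and the DKO cell held 4.07% of the DKO members' UMIs. Immunoglobulin genes took 7.87% of the members' UMIs in KO and 1.11% in DKO, and 0.645% and 0.604% once these 6 cells were left out. Igkc was at 59173 (KO) and 7640 CPM (DKO), and its log2 ratio was -2.95 (-3.00 to -2.90), or -0.04 without them. The other members had a median of 7 (KO) and 8 (DKO) Igkc UMIs, and the highest were 144 and 50.

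The summed counts of the members were then compared between DKO and KO, where a gene counts as past the fold if it has at least 20 UMIs over both libraries and a CPM ratio, with 0.5 counts added, of 2-fold or more. Of 4985 genes, 233 were higher in DKO (4.67%) and 155 were lower (3.11%), or 7.78% in either direction. The median log2 ratio was 0.16. With totals that leave out immunoglobulin genes the median was 0.05, a shift of -0.10, and 161 genes were higher and 188 lower. With median-of-ratios scaling 121 were higher and 221 lower, so which direction held more genes depended on the scaling. Over the same 4985 genes without the 6 antibody-secreting cells, 186 were higher and 163 lower, of which 149 and 111 were past the fold with them as well. Ratios below are to be read against the median of 0.16, and the sign of smaller ratios depended on the scaling.

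**Figure D3:**
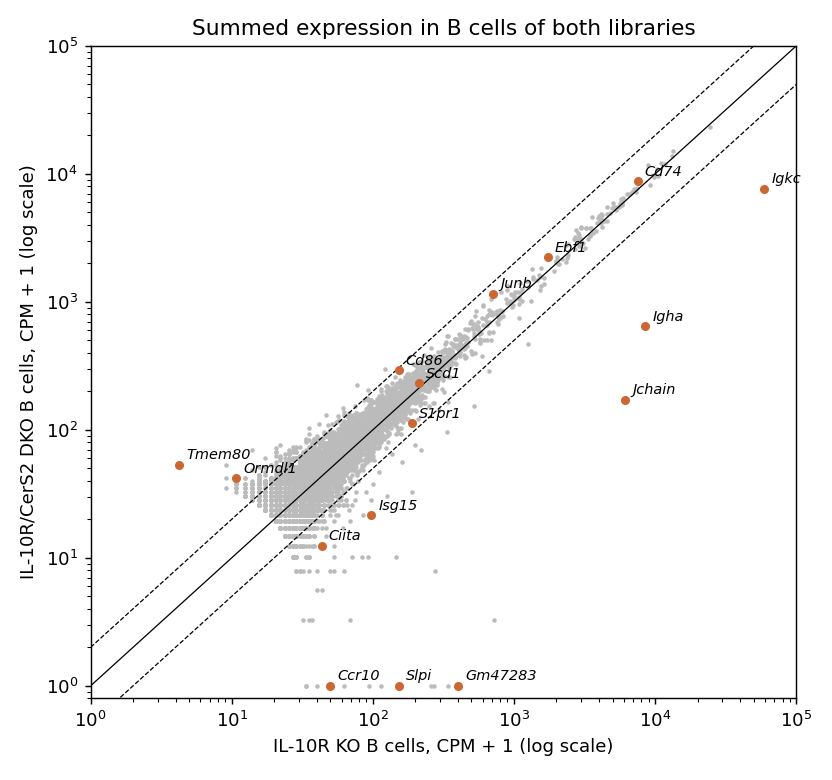
CPM + 1 on log axes in summed B cells of the KO (horizontal) and DKO (vertical) libraries for the 4985 genes with at least 20 UMIs (grey), with named genes in orange, equal levels as a solid line and 2-fold as dashed lines. Most genes lie along the solid line, Igkc, Igha and Jchain lie far below it, and Gm47283, Slpi and Ccr10 are on the floor of 0 in DKO.

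The 12 genes furthest below in DKO had been picked as the extremes of 4985 genes, so large ratios were built into the choice. They differed in where their KO counts lay. Jchain (3762 UMIs in KO and 75 in DKO), Igha (5240 and 281), Slpi (93 and 0), Ccr10 (30 and 0), Cxcl10 (38 and 0), Selenom (19 and 1) and H1f0 (38 and 3) had at least 68.4% of their KO UMIs in the 5 antibody-secreting cells. Slpi, a secreted protease inhibitor, had 83 of its 93 UMIs there, and Cxcl10, a chemokine for T cells, 26 of 38. Without the 6 cells the log2 ratio of Igha was -0.55. Jchain, the gene of the cut, was still at -4.42 with 39 UMIs left over both libraries, and Slpi at -4.13 with 10.

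Fcer1g, the Fc receptor gamma chain of myeloid cells, Ifitm3, an antiviral membrane protein, and S100a6 were spread over few KO members. Fcer1g had 56 UMIs in 9 KO members and 4 UMIs in 4 DKO members. Ifitm3 had 89 UMIs in 12 and 4 UMIs in 4, and S100a6 had 51 UMIs in 14 and 4 UMIs in 4. A single KO member held 29 of the Fcer1g, 47 of the Ifitm3 and 16 of the S100a6 UMIs, and the antibody-secreting cells held 0, 25 and 6 of them. These genes are high in Csf1r+ cells, where Fcer1g stood at 3093 CPM and Ifitm3 at 1909 CPM in KO. The log2 ratio of Fcer1g was -3.16 in all members, -2.99 in members with no UMI of Lyz2 or the C1q genes, and -0.36 once the top 5% of each library by doublet score (a per-barcode estimate that 2 cells share a droplet) was left out. In that last setting Ifitm3 went from -3.83 to -2.43 and S100a6 from -3.03 to -1.41.

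Gm47283 (ENSMUSG00000096768, annotated as protein coding on GRCm38 chromosome Y, 90784738 to 90816464) had 247 UMIs in 113 of 180 KO members and 0 in DKO. Its KO level was 58.7 times the DKO floor, without the counting error of the KO UMIs. T cells had the same gap, at 434.6 (KO) and 2.74 CPM (DKO), and so did Csf1r+ cells, at 277.4 and 1.84 CPM. Other genes of chromosome Y, Ddx3y, Uty, Kdm5d and Eif2s3y, had 0 UMIs in both libraries, and Xist, the RNA of the inactive X chromosome, was at 765.4 and 798.9 CPM in members. Serpina3f, a serine protease inhibitor, had 20 UMIs in 13 KO members and 0 in DKO. Its KO level was 4.76 times the DKO floor, again without the counting error of the KO UMIs. It met the minimum of 20 UMIs through its KO counts alone.

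The 12 genes furthest above in DKO had low counts, of 8 or fewer UMIs in KO. Tmem80 had 2 UMIs in 2 KO members and 23 UMIs in 6 DKO members, a log2 ratio of 3.72 (1.99 to 7.14). Rabep2, which binds the endosome regulator Rab5, had 5 UMIs in 5 KO members and 23 in 20 DKO members (2.58, 1.26 to 4.44), and Ankrd37 had 8 UMIs in 8 and 30 in 18 (2.33, 1.24 to 3.73). Ormdl1, which restrains serine palmitoyltransferase at the first step of sphingolipid synthesis, had 6 UMIs in 6 KO members and 18 in 14 DKO members (1.996, 0.68 to 3.69). Ung, a uracil glycosylase of DNA repair, had 6 UMIs in 6 and 16 in 8, of which 3 lay in the antibody-secreting cell. Zfp68, Ebpl, Sag, Gon4l, Nosip, Gm26532 and Adprm had log2 ratios from 1.83 to 1.996. The lower bounds of all 12 intervals were above 0, and the genes had been picked as the extremes of 4985.

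Genes of early activation stood above the all-gene median in DKO members. Of 14 genes of the list with enough UMIs, 11 had a log2 ratio above 0, beside 3217 of all 4985 genes. Of the 14, 1, Dusp1, was past 2-fold (7.14%, against 4.67% of all genes). The list median was 0.62 against 0.16 for all genes, or 0.44 against 0.07 without the antibody-secreting cells. Cd86 (ENSMUSG00000022901, GRCm38 chromosome 16, 36603869 to 36666081, minus strand), the costimulatory ligand that B cells show to T cells, had 93 UMIs in 55 KO members and 128 UMIs in 77 DKO members. Its level was 151.4 (KO) and 292.2 CPM (DKO), and the log2 ratio was 0.95 (0.55 to 1.35), 0.72 without the antibody-secreting cells and 0.92 in members with no Lyz2 or C1q UMI. No member had more than 6 Cd86 UMIs in KO or 7 in DKO, so no single cell carried the difference.

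At equal depth of 1000 UMIs, Cd86 was seen in 20 of 179 KO members, or 11.2% (6.96 to 16.7), and in 45 of 145 DKO members, or 31.0% (23.6 to 39.2). These shares come from 1 random draw per cell. The intervals do not overlap at this depth, but at 1500 UMIs per cell they did, with 22.5% of KO members (16.5 to 29.5) and 34.3% of DKO members (26.5 to 42.8). The exact expected share over all draws, computed after the data were seen, was 14.4% and 25.8% at 1000 UMIs, and 20.5% and 35.9% at 1500. The share was thus higher in DKO at both depths, by less than in the draw at 1000 UMIs, and whether the intervals separate depends on the depth. Unthinned the shares were 30.6% and 53.1%, and T cells had thinned shares of 1.63% in KO and 0 of 85 in DKO, which allows up to 3.53% by the floor of 3 counts. Cd83, a membrane protein of activated B cells, was at 255.7 (KO) and 433.7 CPM (DKO), a log2 ratio of 0.76 (0.45 to 1.08). Its thinned shares were 29.6% (23.0 to 36.9) and 31.7% (24.3 to 40.0) at 1000 UMIs, and 33.5% (26.5 to 41.1) and 45.7% (37.3 to 54.3) at 1500, with overlapping intervals at both depths. Members with both Cd83 and Cd86 were 30 of 180 in KO, or 16.7% (11.5 to 22.9), and 51 of 145 in DKO, or 35.2% (27.4 to 43.5), unthinned.

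Dusp1, a phosphatase that damps MAP kinases, had 15 UMIs in KO and 22 in DKO (1.02, 0.03 to 2.09). Junb, an AP-1 factor, was at 713.3 and 1162 CPM (0.70, 0.52 to 0.89). Cd69, which holds lymphocytes in tissue, was at 109.1 and 182.6 CPM (0.74, 0.26 to 1.23), with thinned shares of 12.8% and 14.5%. Nr4a1, an early gene of receptor signalling, was at 242.6 and 335.5 CPM (0.47, 0.13 to 0.81). Egr1, Egr3 and Jun were the 3 genes of the list below 0, with log2 ratios of -0.24, -0.16 and -0.16 and intervals that include 0. The list median ranged from 0.28, with a marker threshold of 2 UMIs, to 0.80, with a threshold of 5.

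**Figure D4:**
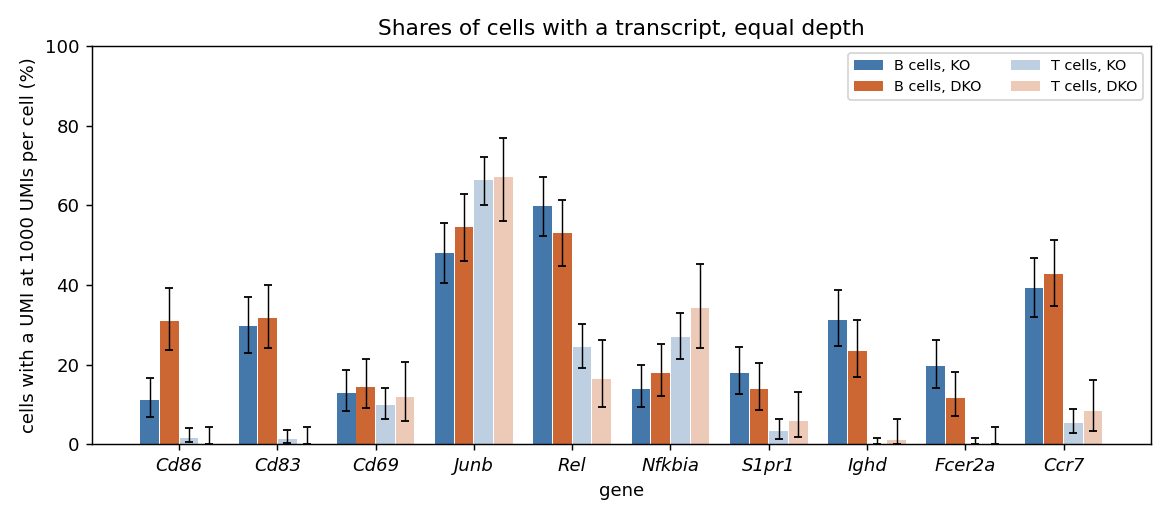
Percent of cells with a UMI of each gene after every cell was thinned to 1000 UMIs, in B cells (solid bars) and T cells (pale bars) of KO (blue) and DKO (orange), with error bars of the 95% exact binomial interval, which cover counting error only. Cd86 is at 11.2% and 31.0% in B cells with intervals apart at this depth (they overlap at 1500 UMIs), while the intervals of the other genes overlap between KO and DKO B cells.

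Receptor signalling genes were near the all-gene median. All 20 genes of the list were tested, with a median of 0.05, 1 past the fold above (5%) and 2 below (10%), against 4.67% and 3.11% of all genes. Dok3, an adaptor that damps receptor signals, was the 1 above, at 60.3 and 146.1 CPM (1.27, 0.67 to 1.90). Vav1, a guanine exchange factor (19 UMIs and 5), and Pik3ap1, an adaptor for PI3-kinase (21 and 6), were below with intervals that include 0. Lyn, the kinase that starts and limits receptor signalling, was at 286.6 and 406.3 CPM (0.50, 0.19 to 0.81). Btk and Blnk, which pass the signal on, had log2 ratios of 0.17 and -0.18 with intervals that include 0.

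None of the 15 genes of the NF-kB list was past the fold, and 12 of 15 were above 0, beside 3217 of all 4985 genes. The list median was 0.34 against 0.16 for all genes, or 0.16 against 0.07 without the antibody-secreting cells. Rel, the family member of activated lymphocytes, was at 882.6 and 1061 CPM (0.27, 0.08 to 0.45), and Nfkbia, an inhibitor that the pathway itself turns on, was at 201.9 and 273.9 CPM (0.44, 0.07 to 0.81). Irf4, which rises on activation and in plasma cells, was at 44.0 and 95.9 CPM (1.12, 0.39 to 1.88), and 0 of its KO UMIs and 2 of its DKO UMIs lay in the antibody-secreting cells.

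Antigen presentation genes were at high levels in members of both libraries. Cd74, the invariant chain, was seen in all 180 KO and all 145 DKO members, at 7519 and 8790 CPM (0.23, 0.16 to 0.29). H2-Aa, H2-Ab1 and H2-Eb1, chains of MHC class II, had log2 ratios of 0.25, 0.19 and 0.21, close to the all-gene median. All 4 genes were found together in 176 of 180 and 143 of 145 members. Of the 10 genes of the list 1 was past the fold below (10%, against 3.11% of all genes), Ciita, the master activator of the class. Ciita had 26 UMIs in 21 KO members and 5 UMIs in 5 DKO members (-1.78, -3.63 to -0.49).

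Of 12 tested interferon-induced genes 3 were past the fold below in DKO members (25%, against 3.11% of all genes). Of the 12, 10 had a log2 ratio below 0, beside 1768 of all 4985 genes, with a median of -0.37. Isg15, a ubiquitin-like protein, had 59 UMIs in 14 KO members and 9 UMIs in 7 DKO members (-2.16, -3.42 to -1.20). Gbp2, a GTPase of the interferon-gamma response, had 32 UMIs in 10 and 5 in 5 (-2.08, -3.91 to -0.82). Bst2, tetherin, had 134 UMIs in 40 and 30 in 19 (-1.65, -2.29 to -1.09), with 88 of the KO UMIs in the antibody-secreting cells and a ratio of -1.07 without them. In KO a single member held 25 of the 59 Isg15 UMIs and 20 of the 32 Gbp2 UMIs. Isg15 and Gbp2 are also high in Csf1r+ cells (1423 and 580.8 CPM in KO), and without the top 5% by doublet score their ratios were -0.42 and -0.55. Gbp2 was at -0.62 in members with no Lyz2 or C1q UMI, and Isg15 at -1.55. The part that RNA of other cells has in these differences was not tested.

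**Figure D5:**
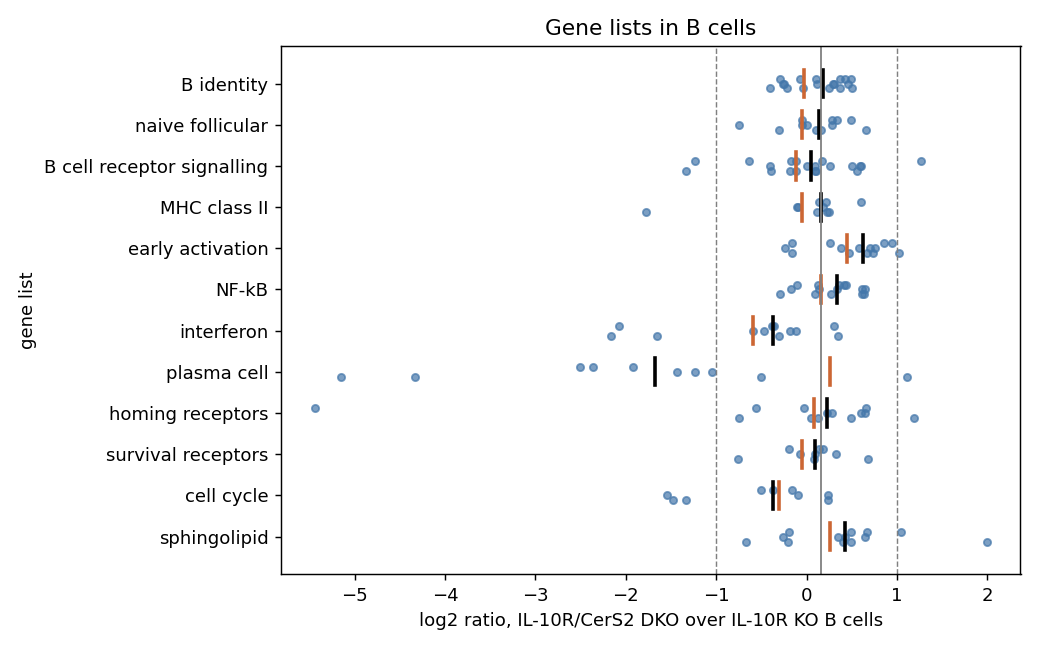
log2 ratio of DKO over KO B cells (horizontal) for each gene with at least 20 UMIs, 1 point per gene, by gene list (vertical), with the list median in black and without the 6 antibody-secreting cells in orange. The grey line is the median of all genes at 0.16 (0.07 without those cells) and the dashed lines mark 2-fold. The plasma cell median moves from -1.67 to 0.26, and the early activation median stays above the grey line.

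The ratios of plasma cell genes depended on the antibody-secreting cells. These cells were cut by Jchain, a gene of the plasma cell list, after the values were seen, so the dependence describes the choice. Of 10 tested genes 8 were past the fold below (80%, against 3.11% of all genes) and 1, Irf4, above (10%, against 4.67%), with a median of -1.67, and the median was 0.26 without the 6 antibody-secreting cells. Fkbp11, Prdm1, the factor that sets the plasma cell program, and Tnfrsf17, the survival receptor BCMA, had all their KO UMIs in the 5 cells (42, 12 and 12).

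Receptors for homing and survival were mostly near the median. Of 13 homing genes tested, Ccr10 was past the fold below (7.69%, against 3.11% of all genes). Itgal, a chain of the integrin LFA-1, was past it above (7.69%, against 4.67%), with 9 and 15 UMIs and an interval reaching below 0. S1pr1 (ENSMUSG00000045092, GRCm38 chromosome 3, 115710433 to 115715072, minus strand), the sphingosine 1-phosphate receptor that lets lymphocytes leave tissue, was seen in 64 KO members (188.9 CPM) and 35 DKO members (111.8 CPM) (-0.75, -1.27 to -0.26). Its thinned shares were 17.9% (12.6 to 24.3) and 13.8% (8.63 to 20.5). Ccr6, which guides B cells to gut follicles, was at 94.5 and 148.4 CPM (0.65, 0.12 to 1.19). Tnfrsf13c, the receptor for the survival factor BAFF, was at 81.4 and 86.7 CPM. No survival gene of 9 was past the fold, and their median was 0.10.

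Sphingolipid genes were sparse, and 13 of 33 had enough UMIs. Their median was 0.43, with Ormdl1 and Asah1, the lysosomal ceramidase, past the fold above (15.4% of the list, against 4.67% of all genes) and none below. Asah1 had 8 and 12 UMIs and an interval that includes 0. Cers2 itself had 18 UMIs, under the minimum. Among the other ceramide synthases, Cers4 had 14 UMIs in each library, Cers5 7 and 4, and Cers6 2 and 1. Cerk, ceramide kinase, was at 120.5 (KO) and 152.9 CPM (DKO) (0.34, -0.16 to 0.84). With genes of at least 5 UMIs the list median was 0.07.

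The 4 tested genes of the IL-10 pathway had a median log2 ratio of 0.06. Il10ra, the ligand-binding chain of the IL-10 receptor, was at 24.4 (KO) and 27.4 CPM (DKO). Jak1 was at 167.7 and 237.4 CPM and Stat3 at 203.6 and 194.0 CPM. Mki67 or Top2a, genes of dividing cells, was seen in 12 of 180 KO members and 5 of 145 DKO members, and 11 of the 13 Mki67 UMIs in KO lay in the antibody-secreting cells. Of 9 cell cycle genes tested, 3 were past the fold below, Mcm3, Rrm2 and Birc5 (33.3%, against 3.11% of all genes), with a list median of -0.37.

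The remaining lists had few genes with enough UMIs. Their shares past the fold are to be read against 4.67% above and 3.11% below among all genes. The 6 tested B-1 genes had a median of -0.63, with 1 past the fold above (16.7%) and 2 below (33.3%), 1 of them S100a6. Marginal zone (4 genes, 0.16), memory (2 genes, -0.45), cytokine (2 genes, 0.11), germinal centre (1 gene, 0.49) and age-associated B cell genes (1 gene, 0.60) had none past the fold. Of 4 Toll-like receptor pathway genes 1 was past the fold below (25%), with a median of 0.21. Of 4 light chain constants 1, Igkc, was past the fold below (25%), with a median of -0.17. The 5 heavy chain constants tested had a median of -1.78, or -0.55 without the antibody-secreting cells, with 3 past the fold below in all members (60%). Ighm was at 499.9 (KO) and 623.2 CPM (DKO).

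Apoe, the lipid carrier best known from macrophages, was uneven among members. It was at 0 in 103 KO and 97 DKO members, and reached 53 and 62 UMIs in a single member. Members with 3 or more Apoe UMIs were 39 in KO (21.7%) and 21 in DKO (14.5%), and they held 89.5% and 87.9% of the Apoe UMIs. Outside the antibody-secreting cells, Ighg2b was seen in 5 KO members, all with 3 or more Apoe UMIs, and in 6 DKO members, 4 with 3 or more and none with 0. The groups were cut from values after they were seen, so this is a description. Over all members Apoe was at 758.9 (KO) and 698.5 CPM (DKO).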

How the data were processed

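Raw UMI counts of single sorted colon cells, from 10x Chromium 3′ libraries, were deposited by the authors after alignment to mm10 with Cell Ranger 6.0.1 (Seurat 4.3.0 served their own later steps and was not used here). The KO library held 2584 barcodes and 12549471 UMIs and the DKO library 742 and 3414944. As in the study's methods, a barcode was kept at 300 to 5000 genes if mitochondrial UMIs were no more than 10%. Doublets were not removed, and leaving out the top 5% of Scrublet scores (scanpy 1.11.5) was an alternative. B cells followed the rule in the report. T cells had 3 or more CD3 UMIs and no B marker or Csf1r, and Csf1r+ cells had 2 or more Csf1r UMIs, no B or CD3 UMI and fewer than 20 of S100a8 and S100a9.

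UMIs were summed per library over members, with exact Poisson, conditional and Clopper-Pearson intervals (scipy 1.17.1, Python 3.11.15). Genes named were the 12 highest and 12 lowest ratios in at least 5 members of the higher library, the leading genes over other cells, the most dispersed genes and genes of 32 lists. Members, lists and tests were chosen with earlier results of these data known. Gene positions are from GENCODE on GRCm38, since the files give only names and identifiers. Alternatives changed the marker threshold, cell filter, scaling, added counts, thinning depth and UMI minimum, or left out single cells or groups of members. Scripts were tested on simulated data. A few genes are not reported here.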

Additional observations from a re-analysis of the deposited data

Results flagged for a closer look

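The ratio of DKO over KO in B cells was set beside that in T cells of the same libraries for the genes of the lists with at least 20 UMIs in each class. For 11 genes the log2 ratios had opposite signs with counting intervals that left out 0 in both. They are named as cases, without the share of all genes that met the same rule, so their number is not a result. The signs are taken against 0 and not against the all-gene median of each class. With 1 library per genotype the difference between the cell types was not tested. For S1pr1 the ratio was -0.75 in B cells and 0.98 in T cells. The immediate early gene Nr4a1 was at 0.47 and -0.59, Rel at 0.27 and -0.62, and Bcl2a1d, whose counts may be shared with near-identical copies, at 0.68 and -1.63. The presentation genes Cd74 (0.23 and -1.55), H2-Aa (0.25 and -1.36), H2-Ab1 (0.19 and -3.09) and H2-Eb1 (0.21 and -2.50) were low in T cells, where Cd74 was at 156.3 (KO) and 52.1 CPM (DKO). Plac8 was at 0.29 and -0.29 and Ifi27l2a at -0.30 and 0.24. Igkc was at -2.95 in B cells, by the antibody-secreting members, and at 1.30 in T cells, where it had only 14.7 and 35.6 CPM. The positive B cell values of 0.19 to 0.29 lie near the median of all genes, 0.16. With median-of-ratios scaling Rel was at 0.07 in B cells.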

How the results depend on the processing

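No paired analysis was possible because each genotype has 1 library. For the B cell shares, counts of genes past the fold and list medians, 204 alternative values stayed within the main value's interval or within 1.5 times the main count and 15 moved further, beside 1 reversed median. For a list median the bounds were the medians of its genes' interval bounds, -0.64 to 1.44 for the sphingolipid list. These bounds are wide, so staying within them is weak evidence of stability. The sphingolipid median counted as staying when it went from 0.43 to 0.07. Of 14 list medians 6 changed sign in some setting, 5 of them small in all members (B identity, naive follicular, receptor signalling, MHC class II and survival receptors, 0.05 to 0.18) and the plasma cell median. With a marker sum of at least 5 UMIs the B cell share was 5.28% in KO and 15.5% in DKO. Genes higher in DKO numbered 121 with median-of-ratios scaling and 155 of 4690 without the antibody-secreting members, an alternative chosen after the data were seen. Genes higher and lower were 40 and 41 with at least 50 UMIs, and 1744 and 2001 with at least 1 UMI, where more genes of few UMIs enter. The plasma cell median was 0.26 without the antibody-secreting members, -0.46 with the stricter cell filter and -0.49 as a mean over cells. The median of the heavy chain constants, -1.78, was -0.55, -0.42 and -0.69 in these settings and -2.97 without the top cell of each gene. The MHC class II median was -0.055 without the antibody-secreting members. Beyond what each setting leaves out, the cause was not tested. The Cd86 ratio ranged from 0.72 to 0.96 over the alternatives, but its thinned KO share was 11.2% at 1000 UMIs and 22.5% at 1500, where the KO and DKO intervals overlap. Of the single-gene ratios and shares, 83 alternative values moved outside the main interval and 448 did not, and every share without thinning moved.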
